A study of Homo sapiens with 36 samples.

Results

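KLF2, KLF4, KLF6, KLF10 and NOS3 were followed through every group of an exposure study in EA.hy926 cells. The members were the 5 entries carrying these symbols, of 18048 genes with values, and each was found in all 3 tables of normalised read counts. EA.hy926 is a human line made by fusing umbilical vein endothelial cells with a lung carcinoma line, and the study exposed it to perfluorooctanoic acid (PFOA), a persistent fluorinated surfactant. Cells received 1, 10 or 100 µM PFOA or vehicle for 48 h, or 1, 10 or 100 nM PFOA or vehicle for 6 or 12 weeks. The vehicle was 0.05% DMSO at every time, the line was labelled wild type, and each of the 12 groups had 3 biological replicates. Long-exposed cells were taken from flasks at passage, whereas short-exposed cells were lysed in their dishes, so exposure time and the way of harvest cannot be told apart. The protocols describe no flow over the cells.

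KLF2 and KLF4 are zinc finger transcription factors that laminar shear stress switches on in endothelium, through the kinases MEK5 and ERK5 and transcription factors of the MEF2 family. Both are known to raise NOS3, which encodes endothelial nitric oxide synthase (eNOS), together with anticoagulant genes such as THBD, and to lower inflammatory and vasoconstrictor genes. KLF6 and KLF10 belong to the same family, bind similar GC-rich and CACCC sequences, and are known as early responders to injury and to TGF-beta.

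The start regions of KLF2 and NOS3 are shown because MEF2 factors are known to act on KLF2 and KLFs on NOS3. Those of KLF4 and KLF6 are printed beside them. The windows are RefSeq's on GRCh38.p14 and run from 250 bases before the transcription start to 50 bases after it. Capitals mark a MEF2-type box in KLF2, the E-box CACGTG in KLF4 and KLF6, and the KLF-type box CACCC in NOS3.
KLF2: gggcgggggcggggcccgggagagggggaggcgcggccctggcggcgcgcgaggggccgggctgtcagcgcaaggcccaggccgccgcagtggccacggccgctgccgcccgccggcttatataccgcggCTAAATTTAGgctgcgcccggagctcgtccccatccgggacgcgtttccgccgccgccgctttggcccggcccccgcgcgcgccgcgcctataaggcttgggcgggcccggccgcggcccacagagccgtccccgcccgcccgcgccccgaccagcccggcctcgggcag
KLF4: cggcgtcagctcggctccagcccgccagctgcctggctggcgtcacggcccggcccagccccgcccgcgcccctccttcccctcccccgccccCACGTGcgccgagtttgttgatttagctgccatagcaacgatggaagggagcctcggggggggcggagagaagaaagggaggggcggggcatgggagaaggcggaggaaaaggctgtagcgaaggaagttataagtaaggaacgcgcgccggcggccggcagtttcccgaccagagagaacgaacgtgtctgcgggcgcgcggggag
KLF6: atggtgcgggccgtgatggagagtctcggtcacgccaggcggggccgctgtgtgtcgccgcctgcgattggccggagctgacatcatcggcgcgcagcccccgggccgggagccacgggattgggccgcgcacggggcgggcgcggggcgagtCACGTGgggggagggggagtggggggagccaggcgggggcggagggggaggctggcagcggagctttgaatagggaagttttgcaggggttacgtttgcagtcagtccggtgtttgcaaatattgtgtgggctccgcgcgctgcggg
NOS3: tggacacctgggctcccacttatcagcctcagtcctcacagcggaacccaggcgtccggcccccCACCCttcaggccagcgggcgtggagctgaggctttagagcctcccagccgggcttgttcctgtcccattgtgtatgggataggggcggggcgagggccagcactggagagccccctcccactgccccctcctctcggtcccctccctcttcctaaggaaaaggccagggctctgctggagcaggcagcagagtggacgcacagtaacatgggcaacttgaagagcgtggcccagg

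The KLF2 window lies at chr19:16324576-16324875 on the plus strand and the KLF4 window at chr9:107489720-107490019 on the minus strand. The KLF6 window lies at chr10:3785160-3785459 on the minus strand. For NOS3 the table gives 2 windows, and the one shown, at chr7:150993532-150993831 on the plus strand, starts inside the annotated gene. KLF10 is named only.

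Motifs were searched on both strands. The KLF2 window holds the letters CTAAATTTAG, a match to CTANNNNTAG, with its first base 120 bases before the start (position -120). That pattern occurs in 2.73% of all 35116 windows and was not found in the KLF4, KLF6 and NOS3 windows. KLF4 carries CACGTG at -157 and KLF6 carries it at -97, a match held by 7.26% of all windows. NOS3 holds CACCC at -186, a short sequence present in 59.9% of all windows. The GC box GGGCGG, present in 45% of all windows, occurs 6 times in KLF2, 4 times in KLF4, 2 times in KLF6 and 1 time in NOS3. These GC boxes do not overlap the motifs in capitals. The GC content was 80.7% for KLF2, 69% for KLF4, 70.7% for KLF6 and 65.3% for NOS3, against a median of 58.7% over all windows. The AP-1 pattern TGANTCA and the CRE pattern TGACGTCA had no match in these 4 windows. A match is a description of the letters and not evidence that a factor binds.

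In GRCh38.p14 the KLF2 gene spans chr19:16324826-16328685, KLF4 spans chr9:107484852-107489769 and KLF6 spans chr10:3775996-3785209. KLF10 spans chr8:102648784-102655725 and NOS3 spans chr7:150991017-151014588. The last 2380 bases of NOS3 overlap ATG9B, an autophagy gene on the opposite strand. Use of strand in the authors' counting is not given in the sources used here, so reads in that overlap cannot be assigned with certainty, and the overlap touches every NOS3 value below. No other member overlaps an annotated gene.

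The libraries held 17815292 to 19466331 reads each, recovered from the deposited values, and 14192 to 15050 genes with at least 1 read. Of 14 endothelial markers, 12 averaged at least 10 normalised counts in each table, CDH5 and PECAM1 among them. CLDN5 was at 0 throughout the 6 and 12 week tables. KDR averaged 3.48 ± 1.59 in 48 h vehicle cells and 0.34 ± 0.58 in 6 week vehicle cells (SD, n = 3 each). Of 9 epithelial markers, 5 averaged at least 10 at 48 h and 6 weeks and 6 at 12 weeks, and CDH1 was at 0 throughout 6 and 12 weeks. Leukocyte markers summed to at most 22.2 normalised counts in any library. The keratins KRT8 and KRT18 were abundant, with means of 17122 ± 10251 and 26999 ± 15799 in 48 h vehicle cells (SD, n = 3). The share of reads on 84 ribosomal protein genes ran from 9.37% to 22.2% across the 36 libraries, and 1 principal component held 78.0% of the variance at 48 h, 83.8% at 6 weeks and 69.2% at 12 weeks.

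No member passed the test in any dose comparison. Each table was fitted with limma on log2(normalised count + 1), and a gene was called at a Benjamini-Hochberg adjusted p under 0.05 over all genes with a mean of at least 10. Of the 45 tests of a member at a dose, 0 were called by limma, 25 had a mean above vehicle and 20 below it. An unadjusted p under 0.05 was met by 10 of them. Over all genes that share ran from 0.0490% to 44.0% by dose comparison. It was 44.0% at 10 nM and 12.2% at 100 nM after 6 weeks, where KLF4 and KLF6 met it at both doses and KLF10 at 10 nM. The count of 10 is therefore no result about the members as a set. Across all genes limma called 0 of 12233 at 48 h, 0 of 12201 at 6 weeks and 0 of 12304 at 12 weeks for every dose, a background of 0%. The edgeR quasi-likelihood test on recovered reads also called 0 genes at every dose and time, and DESeq2 called 0 to 3 genes except at 10 nM after 6 weeks. The words higher and lower below therefore compare means and do not stand for called changes. With 3 libraries against 3, an exact permutation test of 1 gene cannot give a two-sided p below 0.1.

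At 48 h the member whose libraries separated from vehicle was KLF2, the flow-induced factor, which was lower. Its normalised counts were 2465, 2259 and 1444 at 10 µM, against 3021, 2968 and 4039 in vehicle cells. At 100 µM they were 2129, 1560.1 and 2155, against the same vehicle libraries. Every library at these 2 doses lay below every vehicle library, while at 1 µM the values of 3684, 2187 and 2868 overlapped vehicle. KLF2 averaged 2056 ± 540 at 10 µM and 1948 ± 336 at 100 µM, against 3343 ± 604 in vehicle cells (SD, n = 3 each). In bulk RNA, fewer cells that express a gene and less of its RNA per cell cannot be told apart.

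The fitted log2 fold change of KLF2 was -0.22 ± 0.29 (SE) at 1 µM, -0.72 ± 0.29 at 10 µM and -0.78 ± 0.29 at 100 µM. The unadjusted p from limma was 0.0280 at 10 µM and 0.0198 at 100 µM, and the adjusted p was 0.960 and 0.993 at these doses. Along the dose steps, with vehicle at the low end, KLF2 had a slope of -0.28 ± 0.09 log2 units per step (limma, unadjusted p = 0.00933, adjusted p = 0.808). An unadjusted p under 0.05 was met by 2.82% of all genes at 10 µM, 1.99% at 100 µM, 0.0490% at 1 µM and 4.25% for the slope. Libraries wholly below vehicle were found for 3.52% of all genes at 10 µM and 6.46% at 100 µM, and libraries wholly above it for 2.67% and 4.32%. At 1 µM no member separated, where 1.14% of all genes lay wholly above vehicle and 1.17% wholly below.

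The ribosomal share at 48 h was 10.1% to 20.9% at 10 µM and 13.96% to 19.8% at 100 µM, against 12.1% to 17.1% in vehicle cells. In a fit that also held the first principal component, KLF2 at 100 µM had a log2 fold change of -0.73 ± 0.22. Limma gave it an unadjusted p of 0.00449 and an adjusted p of 0.197. The component was computed from the same values, so this fit is no independent support for a lower KLF2. Leaving out single libraries gave -0.86 to -0.63 at 100 µM, with an unadjusted p of up to 0.0772 without replicate 2 of that dose. At 10 µM the range was -0.87 to -0.49, with an unadjusted p of up to 0.105 without replicate 3 of that dose.

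NOS3, the eNOS gene and a known target of KLF2, did not separate from vehicle at 48 h. It had 6978, 6399 and 7923 normalised counts at 10 µM and 6809, 8693 and 4599 at 100 µM, against 7587, 8089.7 and 7791 in vehicle cells. The vehicle libraries lay close together, and at each dose 2 libraries lay below all of them while the third did not. The log2 fold change was -0.14 ± 0.27 at 10 µM and -0.27 ± 0.27 at 100 µM, with unadjusted p-values of 0.605 and 0.342 from limma. At 1 µM it was -0.17 ± 0.27, and a p that misses the threshold does not show that NOS3 was the same.

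KLF4, the other flow-induced factor, was scarce at 48 h and its groups overlapped. It had 44.3, 43.7 and 96.0 normalised counts at 100 µM, against 70.0, 46.8 and 50.7 in vehicle cells. The highest and the lowest of these 6 values were both at 100 µM, and the log2 fold change was 0.05 ± 0.41. At 1 µM it was 0.30 ± 0.41 and at 10 µM -0.13 ± 0.41.

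KLF6 and KLF10 varied more among replicates than between groups at 48 h. KLF6, a regulator of vascular repair genes, had 261, 787 and 67.8 normalised counts at 10 µM, against 427, 497 and 209 in vehicle cells. KLF10, the TGF-beta inducible early gene, had 266, 761 and 123 at 10 µM, against 454, 525 and 298 in vehicle cells. For both genes replicate 2 at 10 µM lay above every vehicle library and replicate 3 below every one. Over the 3 doses log2 fold changes ran from -0.55 ± 0.80 to 0.22 ± 0.80 for KLF6 and from -0.50 ± 0.62 to 0.02 ± 0.62 for KLF10.

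**Figure D1:**
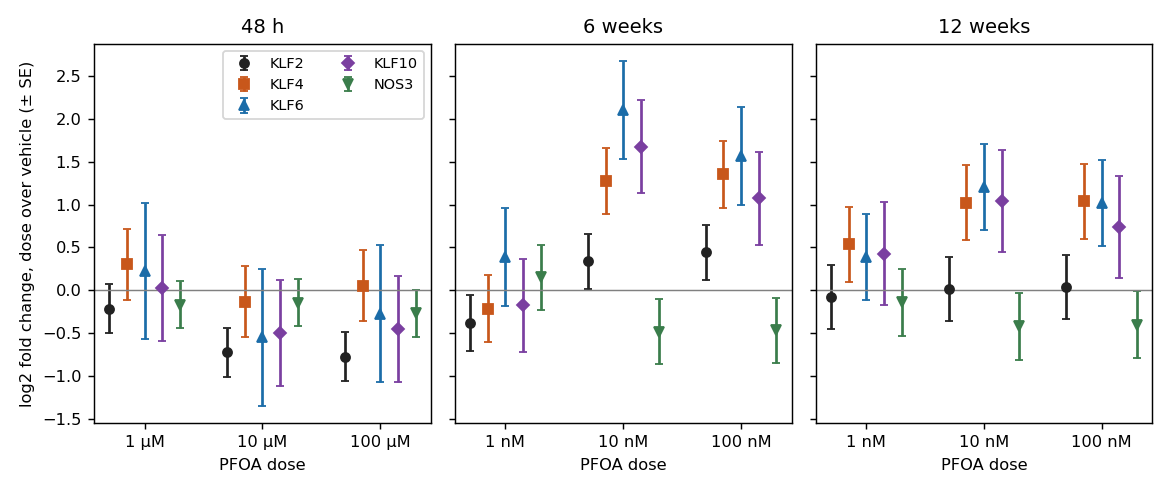
Log2 fold change of each member at each dose over the vehicle of its own table (y axis, ± SE from limma), by PFOA dose (x axis) at 48 h, 6 weeks and 12 weeks. KLF2 is the lowest point at 10 and 100 µM after 48 h, and KLF4, KLF6 and KLF10 lie above 0 at 10 and 100 nM after 6 and 12 weeks, where NOS3 lies below 0.

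At 6 weeks the pattern was another one: KLF4, KLF6 and KLF10 were higher at 10 and 100 nM in every library, and NOS3 was lower on average. KLF4 had 171, 168 and 203 normalised counts at 10 nM, against 43.6, 124 and 73.8 in vehicle cells. At 100 nM it had 175, 168 and 232. All 6 libraries at these doses lay above the highest vehicle library, whereas the values of 84.7, 75.8 and 39.6 at 1 nM overlapped vehicle. The log2 fold change of KLF4 was 1.28 ± 0.39 at 10 nM (limma, unadjusted p = 0.00673, adjusted p = 0.0953) and 1.35 ± 0.39 at 100 nM (unadjusted p = 0.00471, adjusted p = 0.272). Its slope was 0.55 ± 0.12 per dose step (limma, unadjusted p = 0.000751, adjusted p = 0.0979).

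KLF6 had 676, 1437 and 1117 normalised counts at 10 nM, against 133, 290.4 and 353 in vehicle cells. At 100 nM it had 987, 756 and 474. These libraries all lay above vehicle, and so did replicate 1 at 1 nM with 792, while the other two libraries at 1 nM had 247 and 157. KLF6 had a log2 fold change of 2.10 ± 0.57 at 10 nM (limma, unadjusted p = 0.00333, adjusted p = 0.0953) and 1.56 ± 0.57 at 100 nM (unadjusted p = 0.0187, adjusted p = 0.272).

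KLF10 followed the same order. It had 949, 1506 and 1369 normalised counts at 10 nM, against 242, 513 and 480.3 in vehicle cells. At 100 nM it had 1071, 808 and 643. Again no library at these doses overlapped vehicle, and replicate 1 at 1 nM, with 977, stood far above the 201 and 209 of the other two. For KLF10 the log2 fold change was 1.68 ± 0.54 at 10 nM (limma, unadjusted p = 0.00970, adjusted p = 0.0953) and 1.07 ± 0.54 at 100 nM (unadjusted p = 0.0727, adjusted p = 0.272).

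These separations stand in a table where much of the transcriptome separated. Libraries wholly above vehicle were found for 30.6% of all genes at 10 nM and 22.9% at 100 nM, and libraries wholly below it for 29.8% and 24.4%. An unadjusted p under 0.05 was met by 44.0% of genes at 10 nM, 12.2% at 100 nM and 44.6% for the slope. At 1 nM libraries wholly above vehicle were found for 0.754% of genes and wholly below for 0.557%, none of them a member, and 0.254% had an unadjusted p under 0.05. The shares at 10 and 100 nM are large, so 3 separated members of 5 are no result about these genes as a set.

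The ribosomal share moved with the same groups. It was 9.37% to 13.4% at 10 nM and 11.7% to 16.3% at 100 nM, against 17.2% to 19.4% in vehicle cells. At 1 nM it was 11.4% in replicate 1, the library with high KLF6 and KLF10, and 18.5% and 19.0% in the others. The share of reads on genes of the mitochondrial genome was 5.99% to 7.82% at 10 nM and 6.27% to 9.70% at 100 nM. In vehicle cells that share was 9.24% to 11.4%, and at 1 nM 5.58% to 11.2%. The summed endothelial markers were 25081 to 32387 normalised counts at 10 nM, against 43461 to 99058 in vehicle cells. The summed epithelial markers were 20581 to 40902 at 10 nM, against 74312 to 142706. At 1 nM the endothelial sum ran from 26625 to 107084 and the epithelial sum from 27271 to 184201. The endothelial sum rests on a few abundant genes, and of the 12 endothelial markers tested 6 had a mean above vehicle and 6 below it, with a median log2 fold change of -0.09. ENG averaged 8690 ± 1484 at 10 nM, against 26075 ± 14556 in vehicle cells, and EGFL7 3196 ± 1319, against 14464 ± 8537 (SD, n = 3 each). Going the other way, CDH5 averaged 2865 ± 132, against 1631 ± 583 in vehicle cells, ERG 1129.6 ± 169.6, against 551 ± 162, and TEK 490.2 ± 145, against 141 ± 67.8. The epithelial sum rests on KRT7, KRT8 and KRT18. Of the 5 epithelial markers tested 1 had a mean above vehicle and 4 below it, with a median log2 fold change of -1.59. The 1 above was the scarce EPCAM, at 13.6 ± 1.62 against 5.29 ± 1.80 in vehicle cells. In a fit that also held the table's first principal component, KLF4 had a log2 fold change of 0.62 at 10 nM and 0.85 at 100 nM. In that fit KLF6 had 0.53 at 10 nM, and KLF10 had 0.22 at 10 nM and -0.03 at 100 nM. The component itself separated these doses from vehicle, at 7.74 to 84.3 in the 10 and 100 nM libraries against -113.5 to -18.5. It was computed from the same values, so this fit cannot tell the component and the dose apart. The part of the marker levels and read shares in the member values was not tested.

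The calls at 6 weeks depended on the fit. DESeq2 on the recovered reads called 3706 genes at 10 nM and gave adjusted p-values of 0.0293 for KLF4, 0.0255 for KLF6 and 0.0303 for KLF10. The edgeR quasi-likelihood test called 0 genes. With limma on the 10 nM and vehicle libraries alone, 4742 genes were called and the adjusted p was 0.0268 for KLF4, 0.0153 for KLF6 and 0.0153 for KLF10. Without replicate 1 at 1 nM, limma gave 0.0146 for KLF4, 0.00762 for KLF6 and 0.00762 for KLF10, and without replicate 3 at 1 nM it gave 0.0491 for each. Leaving out single libraries kept KLF4 at 0.90 to 1.65 at 10 nM and 0.98 to 1.72 at 100 nM, lowest without vehicle replicate 1.

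KLF2 and NOS3 did not separate from vehicle at 6 weeks. KLF2 had 4207, 3146 and 3835 normalised counts at 10 nM, against 3115, 2148 and 3756 in vehicle cells. At 100 nM it had 3540.0, 4352 and 4081, of which replicate 1 lay within the vehicle range. KLF2 had log2 fold changes of -0.38 ± 0.32 at 1 nM, 0.34 ± 0.32 at 10 nM and 0.44 ± 0.32 at 100 nM.

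NOS3 had 3440.1, 3104 and 3321 normalised counts at 10 nM, against 7563, 2934 and 4404 in vehicle cells. At 100 nM it had 3140.2, 3966 and 2951. The libraries at both doses lay inside the vehicle range, toward its low end, and vehicle replicate 1 was the high value. For NOS3 the log2 fold change was -0.49 ± 0.38 at 10 nM and -0.47 ± 0.38 at 100 nM, and without vehicle replicate 1 it was -0.13 and -0.11. In the fit with the first principal component, which itself separated these doses from vehicle, it was 0.31 and 0.13. Its sign also turned with the scaling: quantile normalisation gave 0.10 and 0.04, and scaling to total reads gave 0.18 and 0.08. Scaling to total reads moved the median log2 fold change of all genes to 0.72 at 10 nM and 0.59 at 100 nM, and relative to that median NOS3 stood at -0.54 and -0.50. On the same footing KLF4 stood at 1.22 and 1.31, KLF6 at 2.05 and 1.53, and KLF10 at 1.62 and 1.03.

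After 12 weeks KLF4 was again the member whose libraries separated from vehicle. It had 509.7, 539 and 502 normalised counts at 10 nM, against 382, 106 and 405 in vehicle cells. At 100 nM it had 421, 672 and 501. All 6 libraries lay above vehicle, and vehicle replicate 2 was far below the other vehicle libraries. The log2 fold change was 1.02 ± 0.44 at 10 nM (limma, unadjusted p = 0.0381, adjusted p = 0.655) and 1.04 ± 0.44 at 100 nM (unadjusted p = 0.0359, adjusted p = 0.751). Without vehicle replicate 2 it was 0.39 at 10 nM and 0.41 at 100 nM. Libraries wholly above vehicle were found for 2.06% of all genes at 10 nM and 2.07% at 100 nM, and wholly below it for 1.22% and 2.57%. An unadjusted p under 0.05 was met by 1.37% at 10 nM, 2.33% at 100 nM, 0.195% at 1 nM and 2.22% for the slope, which was 0.36 ± 0.14 per step for KLF4. At 1 nM no member separated, where 1.66% of all genes lay wholly above vehicle and 0.805% wholly below.

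KLF6 and KLF10 had higher means at 12 weeks with overlap. KLF6 had 592, 1693 and 1793 normalised counts at 10 nM, against 559, 309 and 854 in vehicle cells. KLF10 had 508, 1199 and 1406 at 10 nM, against 510.0, 248 and 774. In both genes replicate 1 at 10 nM fell within the vehicle range while the other replicates lay above it. The log2 fold change of KLF6 was 1.20 ± 0.50 at 10 nM (limma, unadjusted p = 0.0337, adjusted p = 0.655) and 1.01 ± 0.50 at 100 nM, and that of KLF10 was 1.04 ± 0.60 and 0.73 ± 0.60. Without vehicle replicate 2, KLF6 stood at 0.81 at 10 nM and 0.63 at 100 nM, and KLF10 at 0.60 and 0.29. Ribosomal protein genes took 12.2% to 22.2% of reads at 10 nM and 11.1% to 19.0% at 100 nM, against 16.5% to 21.4% in vehicle cells.

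KLF2 showed no shift at 12 weeks beyond its spread. It had 8641, 3690.3 and 5390.5 normalised counts at 100 nM, against 3932, 7666 and 5248 in vehicle cells, so the highest and the lowest of these 6 values were both at 100 nM. Its log2 fold change was -0.08 ± 0.37 at 1 nM, 0.01 ± 0.37 at 10 nM and 0.04 ± 0.37 at 100 nM. NOS3 had 3556, 2099.6 and 2307 at 100 nM, against 2263, 6036 and 2929.8 in vehicle cells. Vehicle replicate 2 was the high value, and the log2 fold change of NOS3 was -0.42 ± 0.39 at 10 nM and -0.41 ± 0.39 at 100 nM. Without that library it was -0.012 at 10 nM and 0.0045 at 100 nM.

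The exposure effects at 12 and 6 weeks were compared directly in 1 limma fit of 24 libraries. The difference of the log2 fold changes, 12 weeks minus 6 weeks, was -0.25 ± 0.60 for KLF4 at 10 nM and -0.32 ± 0.60 at 100 nM. For KLF6 it was -0.90 ± 0.81 at 10 nM, for KLF10 -0.63 ± 0.86, for KLF2 -0.33 ± 0.48 and for NOS3 0.07 ± 0.55. All 15 adjusted p-values were at least 0.906, and limma called 0 of 12037 genes at each dose (0%). An unadjusted p under 0.05 was met by 0.208% of genes at 1 nM, 0.349% at 10 nM and 0.565% at 100 nM, none of them a member. The edgeR test called 0 genes at each dose, and DESeq2 called 2 genes at 1 nM and 1 gene each at 10 and 100 nM, none of them a member.

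The order of levels over the 12 groups differed between members. These orders cross tables whose common scaling is not stated in the sources used here, so they are descriptions without a test. KLF2 was highest in the 12 week groups, with means of 5907 ± 2515 at 100 nM and 5615 ± 1894 in vehicle cells, and lowest at 100 µM after 48 h with 1948 ± 336. KLF4 ran from 53.9 ± 22.7 at 10 µM after 48 h to 531 ± 128 at 100 nM after 12 weeks. KLF6 ran from 259 ± 114 in 6 week vehicle cells to 1359 ± 667 at 10 nM after 12 weeks. KLF10 ran from 323 ± 140 at 100 µM after 48 h to 1275 ± 290 at 10 nM after 6 weeks.

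NOS3 had the reverse order of KLF4 in time. Its mean was 7823 ± 253 in 48 h vehicle cells, 4967 ± 2366 in 6 week vehicle cells and 3743 ± 2014 in 12 week vehicle cells. KLF4 in the same groups had 55.8 ± 12.4, 80.4 ± 40.5 and 297 ± 167. Of the 11 neighbouring pairs in each member's order, all 11 overlapped for KLF2, KLF6, KLF10 and NOS3, and 9 overlapped for KLF4. The KLF4 pairs that did not overlap were 10 nM and 1 nM at 12 weeks, and 10 nM and vehicle at 6 weeks.

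Per kilobase of the longest annotated transcript, KLF2 and NOS3 were the abundant members. KLF2 had 1657 ± 299 normalised counts per kb in 48 h vehicle cells and NOS3 had 1783 ± 57.6. KLF10 had 116 ± 31.7, KLF6 had 81.1 ± 32.2 and KLF4 had 19.9 ± 4.42 on the same scale. In 12 week vehicle cells KLF2 had 2783 ± 939 per kb and NOS3 had 853 ± 459. KLF4, at 106 ± 59.2 per kb, was by then near KLF6 at 123 ± 58.6 and KLF10 at 139.6 ± 71.8.

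Members differed in how far replicates of a group lay apart. The ratio of the highest to the lowest replicate had a median over the 12 groups of 2.55 for KLF6 and 2.80 for KLF10, and reached 11.6 for KLF6 at 10 µM after 48 h. For KLF2, KLF4 and NOS3 the median was 1.60, 1.55 and 1.61. KLF6 and KLF10 moved together over the 36 libraries, with a Pearson r of 0.909 on log2 values centred on group means. Other genes lay closer still, CRKL to KLF6 at 0.983 and FAM91A1 to KLF10 at 0.986. An r of this size is therefore not particular to the pair, and the share of all genes that reach it is not given here. Within groups, KLF4 ran opposite to NOS3 with r = -0.849, while KLF2 and NOS3 had r = 0.430 and KLF2 and KLF4 had r = -0.320.

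The same libraries ordered KLF6 and KLF10 by their ribosomal share. Centred on group means, r with that share was -0.916 for KLF6 and -0.872 for KLF10, against -0.352 for KLF4, 0.381 for NOS3 and 0.030 for KLF2. These correlations describe 36 libraries in which all genes share depth and scaling, and carry no test.

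**Figure D2:**
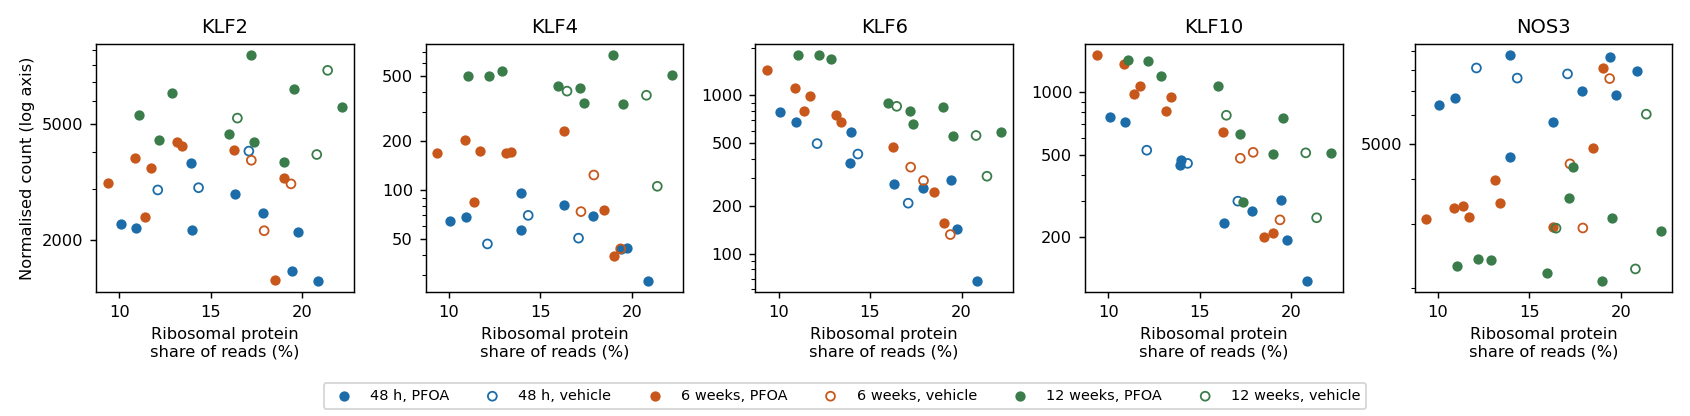
Normalised count of each member (y axes, log scale) against the percentage of reads on ribosomal protein genes (x axes) in 36 libraries, filled for PFOA and open for vehicle, coloured by exposure time. KLF6 and KLF10 tend to be lower where the share is higher, with scatter, whereas KLF2 shows no such order. Over the 36 libraries, centred on group means, r is -0.916 for KLF6, -0.872 for KLF10 and 0.030 for KLF2.

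The genes most like each member were taken from 10406 genes by Pearson r over the 36 libraries, centred on table means. They were CYB5A (0.862), EXOSC6 (0.852) and ATP5MC3 (0.839) for KLF2. For KLF4 they were DRAM1 (0.888), HNRNPDL (0.886) and CEBPZ (0.883). KLF6 had ATP2A2 (0.982), PALM2AKAP2 (0.981) and CCDC47 (0.980) at its side. KLF10 had FAM91A1 (0.982), TAF5L (0.974) and HELZ (0.974). NOS3 had GBF1 (0.956), FADS2 (0.951) and ARHGEF40 (0.947). Centred on group means the closest genes were UBE2C for KLF2 (0.917), CETN3 for KLF4 (0.934), CRKL for KLF6 (0.983), FAM91A1 for KLF10 (0.986) and LIMK1 for NOS3 (0.957), so CCDC47, FAM91A1, TAF5L and ARHGEF40 were among the closest 3 under both centrings.

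Genes that KLF2 or KLF4 is known to lower were mostly higher at 6 weeks, and 0 of 10 tested passed in any comparison. At 10 nM 9 of 10 had a mean above vehicle, with a median log2 fold change of 1.34 against 0.05 over all genes tested. At 100 nM 8 of 10 were above, with a median of 1.05 against 0.04. IL6, an inflammatory cytokine, had 121 to 158 normalised counts at 10 nM, against 16.2 to 57.6 in vehicle cells. CXCL8, a neutrophil chemokine, had 523 to 1161, against 134 to 363, and EDN1, the vasoconstrictor endothelin, had 440.0 to 543, against 92.1 to 331. None of these 3 genes overlapped vehicle, in a comparison where 30.6% of all genes lay wholly above it. Their log2 fold changes at 10 nM were 1.92 ± 0.51 for IL6, 1.67 ± 0.46 for CXCL8 and 1.50 ± 0.54 for EDN1, each with an adjusted p of at least 0.0953 from limma.

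At 48 h the same list leaned the other way at the higher doses. At 10 µM 2 of 10 were above vehicle and the median was -0.42 against 0.01 over all genes tested, and at 100 µM 4 of 10 were above with a median of -0.31 against 0.03. CCL2, a monocyte chemokine, had 403 to 878 normalised counts at 10 µM, against 925 to 1047 in vehicle cells, and a log2 fold change of -0.64 ± 0.29. Its libraries did not overlap vehicle, where 3.52% of all genes lay wholly below it. At 12 weeks 9 of 10 were above vehicle at 10 nM with a median of 0.44 against 0.02, and 8 of 10 at 100 nM with a median of 0.57 against 0.00. CXCL8 at 100 nM after 12 weeks had a log2 fold change of 1.62 ± 0.54.

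**Figure D3:**
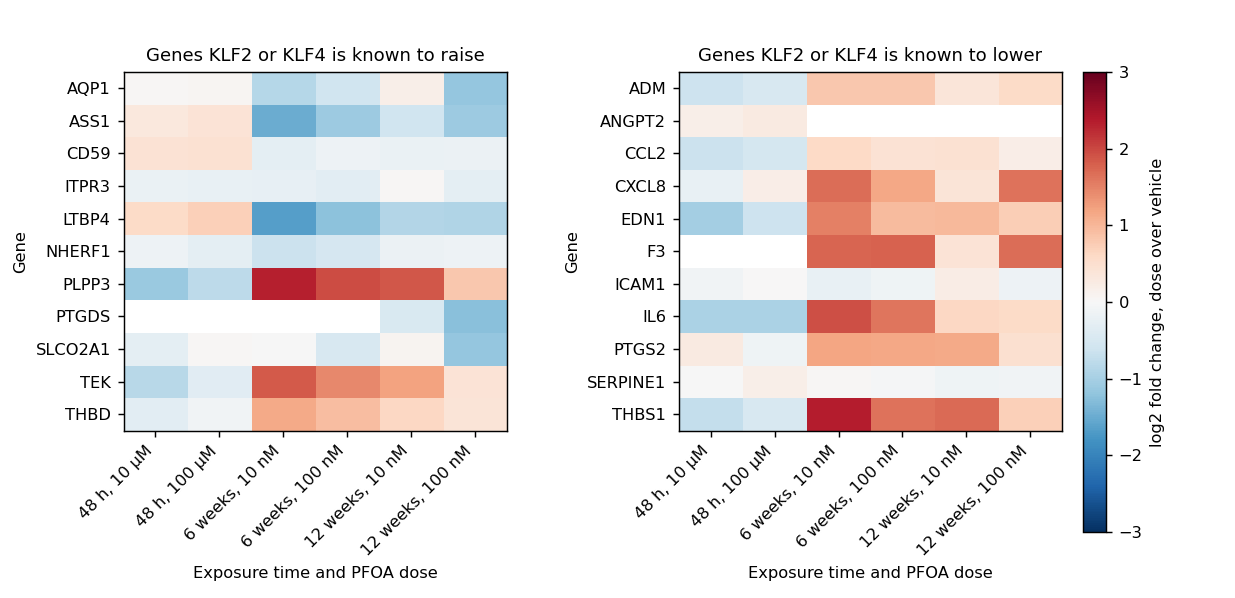
Log2 fold change over vehicle (colour, red higher, blue lower) of every tested gene that KLF2 or KLF4 is known to raise (left) or lower (right), by time and dose (x axis); white cells mark genes under the mean of 10 in that table. At 6 weeks and 10 nM, 9 of 10 genes on the right are red, against 3 of 10 on the left.

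Genes that KLF2 or KLF4 is known to raise split in direction at 6 weeks, and 0 of 10 passed. At 10 nM 3 were above vehicle and 7 below, with a median of -0.26 against 0.05 over all genes tested. THBD, the anticoagulant receptor thrombomodulin, had 6182 to 8817 normalised counts at 10 nM, against 2473 to 4245 in vehicle cells. Its libraries lay wholly above vehicle, as did those of 30.6% of all genes. TEK, the angiopoietin receptor, and PLPP3, a lipid phosphatase, were the others with a mean above vehicle. Their log2 fold changes were 1.85 ± 0.60 and 2.34 ± 0.77. Below vehicle, LTBP4, a matrix protein that binds latent TGF-beta, stood at -1.66 ± 0.61 and ASS1, which makes the precursor of arginine, at -1.48 ± 0.67. At 12 weeks and 100 nM 3 of 11 were above, with a median of -0.30 against 0.00, and SLCO2A1, a prostaglandin transporter, stood at -1.16 ± 0.39.

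Other KLF family genes were also mostly above vehicle at 6 weeks. Of 14 listed, 13 were in the tables and 7 had a mean of at least 10, and at 10 nM 6 of these 7 were above vehicle with a median of 1.14 against 0.05 over all genes tested. KLF12 had 98.7 to 183 normalised counts at 10 nM, against 19.4 to 52.6 in vehicle cells, and KLF7 had 288 to 416, against 64.7 to 176. Their log2 fold changes were 1.85 ± 0.56 and 1.79 ± 0.56, and those of KLF3, KLF13, KLF11 and KLF9 were 0.85, 1.25, 1.14 and 1.09. At this dose 30.6% of all genes lay wholly above vehicle and 29.8% wholly below it. KLF16 was the family gene below vehicle, with 601 to 978 normalised counts at 10 nM, against 1207 to 3212 in vehicle cells. Its log2 fold change was -1.16 ± 0.52. At 100 nM 6 of 7 were above with a median of 0.98. At 12 weeks 6 of 7 were above at both doses, with medians of 0.45 and 0.26. At 48 h 4 of 7 were above at 10 µM and 3 of 7 at 100 µM, and 0 passed at any dose or time.

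On the route that leads to KLF2, 21 of 22 listed genes were tested and split evenly. KDR was under the mean of 10 at 48 h and 6 weeks and was not tested there. At 6 weeks and 10 nM 10 were above vehicle and 11 below, with a median of -0.09. HDAC4 and HDAC5, deacetylases that hold MEF2 factors silent, stood at -1.69 ± 0.54 and -1.33 ± 0.53, and MEF2B at -2.49 ± 0.89. Of the CCM complex genes, which restrain this route, CCM2 stood at -1.12 ± 0.42 and PDCD10 at 1.03 ± 0.40, and HEG1, a receptor that binds the complex, at 1.12 ± 0.45. At 48 h, where KLF2 was lower, 12 of 21 were above vehicle at 10 µM and 9 of 21 at 100 µM, and MEF2D and MEF2C at 100 µM stood at -0.41 ± 0.19 and 0.38 ± 0.20. None of the 21 passed at any dose or time.

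Around eNOS itself 21 of 27 listed genes were tested, with 10 above and 11 below vehicle at 6 weeks and 10 nM and a median of -0.05. SLC7A1, which imports arginine, had 558 to 720.1 normalised counts at 10 nM, against 239 to 344 in vehicle cells, a log2 fold change of 1.13 ± 0.35. GCH1, the first enzyme of the cofactor tetrahydrobiopterin, stood at 1.76 ± 0.64, while SPR, the last enzyme of that path, stood at -1.23 ± 0.49. NOSIP, an eNOS-binding protein, had 740.0 to 1369 normalised counts at 10 nM, against 2790 to 8559 in vehicle cells. Its log2 fold change was -2.25 ± 0.73. At this dose 30.6% of all genes lay wholly above vehicle and 29.8% wholly below it. ASL, which makes arginine, stood at -2.00 ± 0.69 and DDAH2, which clears an eNOS inhibitor, at -1.19 ± 0.49. At 48 h the list had 12 above and 9 below at both 10 and 100 µM, with medians of 0.02 and 0.03, and 0 passed at any dose or time.

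Of the 18 TGF-beta response genes, all tested, 13 were above vehicle at 6 weeks and 10 nM with a median of 0.51, and 12 at 100 nM with a median of 0.34. SMAD7, the pathway's inhibitor, had 166 to 219.7 normalised counts at 10 nM, against 16.2 to 84.9 in vehicle cells, and BHLHE40, a transcriptional repressor, had 2463 to 3785, against 835 to 1679. Neither overlapped vehicle, where 30.6% of all genes lay wholly above it, and their log2 fold changes were 2.03 ± 0.70 and 1.58 ± 0.43. ENG, an endothelial co-receptor, stood at -1.46 ± 0.57. At 48 h 6 of 18 were above vehicle at 10 µM and 7 of 18 at 100 µM, and 0 of 18 passed at any dose or time.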

How the data were processed

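RNA of 36 EA.hy926 libraries was sequenced as 150 bp pairs on a DNBSEQ instrument, per the labels' protocols. The deposited values are a signal, namely read counts divided by a size factor of each library, in 1 table per exposure time. The submitters' processing notes name HISAT, Bowtie2, DESeq2 and the build GRCh38.p14, with no versions. How reads were counted, and whether by strand, is not given in the sources used here. Every column gave whole reads within 0.01, and in vehicle replicate 3 at 6 weeks the step was near 1. Of the 6 week entries, 1 names no gene and was left out.

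Groups followed the labels. Each table of 12 libraries was fitted with limma 3.58.1 in R 4.3.3 on log2(value + 1), a scale that understates changes of low genes, for genes with a mean of at least 10, and p-values were adjusted by Benjamini-Hochberg over all genes tested. The slope used the dose steps vehicle, 1, 10 and 100. In limma the p-values rest on 1 estimate per gene of the spread between biological replicates, shared by all groups of the fit and moderated over genes. The libraries of other doses therefore enter the p of each dose comparison, except where the 2 groups were fitted alone. Alternatives were edgeR 4.0.16 and DESeq2 1.42.0 on recovered reads, other pseudocounts, filters and scalings, a first-component covariate, a replicate block, the 2 groups alone and leaving out each library. The methods were run on simulated counts with a fixed dispersion and no component shared between libraries. That setting differs from these data, so the run does not measure what the tests could find here.

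The members and lists were chosen with earlier results of these data known. In every comparison the 5 members were named, with at most 6 genes of each list, those with the smallest unadjusted p, and the 3 genes most like each member; the map of KLF2 and KLF4 targets shows both lists in full. Transcript lengths are from GENCODE v29.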

Additional observations from a re-analysis of the deposited data

How the results depend on the processing

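No member value with an unadjusted p under 0.05 changed direction under any alternative. Pseudocounts of 0.1 and 10, no filter, a minimum mean of 50 and the replicate block changed no call and turned no member. Same-numbered libraries did not deviate together as a rule: of 18 same-numbered pairs in each table, the correlation was over 0.1 in 7 at 48 h, 5 at 6 weeks and 8 at 12 weeks, with medians of 0.023, -0.20 and -0.40 and ranges of -0.89 to 0.89, -0.86 to 0.81 and -0.85 to 0.87. Pairs with different numbers spread about as widely, with correlations between -0.85 and 0.89 in the 48 h table. With 3 libraries per group, such correlations cannot decide whether same-numbered libraries share a batch or culture. With the replicate block KLF4 at 6 weeks and 10 nM stayed at 1.28, with a limma adjusted p of 0.146, and 0 genes were called. The cause of each change below was not tested.

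Counts of all called genes, 0 in limma, moved as follows. DESeq2 called 1 gene at 48 h for 1 µM and 1 for 10 µM. At 6 weeks it called 2 at 1 nM, 3706 at 10 nM, 3 at 100 nM and 3174 for the slope, and 3 member tests at 6 weeks. At 12 weeks it called 2 at 10 nM, 1 at 100 nM and 2 for the slope, and for 12 minus 6 weeks 2, 1 and 1. Quantile normalisation called 1 for the 6 week slope. The 2 groups alone gave 4742 at 6 weeks and 10 nM, with 3 member tests. Leaving out 1 library gave 0 to 5946 at 6 weeks and 10 nM, 0 to 7084 for the slope, 0 to 1 at 1 nM and 0 to 3 member tests at 6 weeks; replicates 1 and 3 at 1 nM were the libraries whose loss made calls at 10 nM, 5946 and 3203.

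Directions turned for these log2 values. With edgeR, KLF6 at 48 h and 10 µM was 0.0058, the KLF4 slope at 48 h 0.0089 and KLF10 at 6 weeks and 1 nM 0.20. With DESeq2 the KLF4 slope was 0.014, KLF10 at 6 weeks and 1 nM 0.16 and KLF2 at 12 weeks and 10 nM -0.038. With the first component as covariate, at 48 h KLF10 at 1 µM was -0.11, KLF4 at 10 µM 0.084, KLF6 at 10 and 100 µM 0.072 and 0.29, and the slopes of KLF4, KLF6 and KLF10 0.060, 0.090 and 0.00098. At 6 weeks that component itself separated 10 and 100 nM from vehicle. In the fit with it NOS3 at 6 weeks was 0.31 at 10 nM, 0.13 at 100 nM and 0.047 for the slope, and KLF10 -0.029 at 100 nM. At 12 weeks the same fit gave NOS3 0.029 at 1 nM. For 12 minus 6 weeks it gave KLF4 0.057, KLF10 0.051 and NOS3 -0.28 at 10 nM, and KLF10 0.10 and NOS3 -0.15 at 100 nM. With quantile normalisation NOS3 at 6 weeks was 0.10, 0.041 and 0.0098 (10 nM, 100 nM, slope), at 12 weeks and 1 nM KLF2 was 0.13 and NOS3 0.052, and for 12 minus 6 weeks NOS3 was -0.21 and -0.20 at 10 and 100 nM. Scaling to total reads, chosen after seeing the data, gave KLF4 -0.24 at 48 h and 100 µM, NOS3 0.18, 0.084 and 0.024 at 6 weeks, and KLF2 0.14 and NOS3 0.085 at 12 weeks and 1 nM. For 12 minus 6 weeks it gave KLF6 0.18 at 1 nM, and NOS3 -0.22 and -0.20 at 10 and 100 nM.

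Leaving out 1 library spanned 0 for these. At 48 h the ranges were, at 1 µM, KLF6 -0.15 to 0.51 and KLF10 -0.36 to 0.45. At 10 µM they were KLF4 -0.36 to 0.28, KLF6 -1.40 to 0.36 and KLF10 -1.19 to 0.12. At 100 µM they were KLF4 -0.32 to 0.24 and KLF6 -0.78 to 0.24, and the KLF4 slope was -0.14 to 0.029. At 6 weeks and 1 nM they were KLF4 -0.59 to 0.16, KLF6 -0.28 to 0.89, KLF10 -0.93 to 0.21 and NOS3 -0.18 to 0.51. At 12 weeks and 1 nM they were KLF2 -0.31 to 0.17, KLF4 -0.095 to 0.87, KLF10 -0.018 to 0.96 and NOS3 -0.44 to 0.27. KLF2 at 12 weeks was -0.22 to 0.26 at 10 nM, -0.28 to 0.34 at 100 nM and -0.074 to 0.11 for the slope, and NOS3 -0.70 to 0.0045 at 100 nM. For 12 minus 6 weeks they were, at 1 nM, KLF2 -0.015 to 0.57, KLF6 -0.50 to 0.66 and NOS3 -0.65 to 0.12, at 10 nM KLF4 -0.88 to 0.12 and NOS3 -0.29 to 0.48, and at 100 nM KLF4 -0.94 to 0.056, KLF10 -0.78 to 0.035 and NOS3 -0.29 to 0.47.

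Groups of 3 libraries left SEs of 0.27 to 0.80 log2 units on a member in a single dose comparison.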
